A study of Mus musculus with 13 samples.

Results

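The genes described are 42 genes of DNA replication and S phase, given as a named list: the helicase subunits Mcm2 to Mcm7 and their loaders, the factors that switch the helicase on, the sliding clamp and its loader, the replicative polymerases, enzymes of nucleotide supply, cyclins E and E2F factors, and genes of Okazaki fragment ligation, maintenance methylation and the replication checkpoint. No cutoff on a measured value chose them, but the list was drawn up with earlier results of these data known. All 42 were measured, among 19937 genes, on 13 Affymetrix arrays of mouse material, 1 array per sample. For the genes with several probe sets, the set with the highest mean level was used. Levels are log2(intensity + 1) throughout, differences are differences of those levels with their standard error (SE), and where the lower level is dim a difference understates the change.

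A gene is called where limma's adjusted p over all 19937 genes is under 0.05, and only called genes are said to have risen or fallen. The sorted groups are melanocytes purified by FACS from animals: Cdkn2a/Braf cells of day 19, which the labels place ahead of growth arrest, Cdkn2a/Braf cells of day 50, which they place after it, and Cdkn2a only cells of day 19, which have wild-type Braf. Each has 2 arrays. The others are uncultured tissue, with 2 arrays for melanoma of genotype Cdkn2a/Braf, 2 for melanoma of genotype Cdkn2a/Braf/Lkb1 and 3 for melanocytic proliferations of genotype Lkb1/Braf, each of these a pool. Cdkn2a is thus altered in every group but the proliferations, and Braf in every group but the Cdkn2a only cells. Lkb1, the kinase encoded by Stk11, is altered in the proliferations and in 1 of the melanoma groups. The study's title sets growth arrest induced by mutant Braf against activation of mTORC1, a growth-promoting kinase complex that Lkb1 signalling restrains. The alleles, the Cre driver and its cell type, the ages of the tissues and the number of animals behind each array or pool are not stated in the labels. The samples of a group are called biological replicates in the labels.

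In a dividing cell, Cdc6 and Cdt1 load rings of the Mcm2 to Mcm7 helicase onto origins before S phase, and geminin (Gmnn) blocks further loading once S phase has begun. Cdc45 and the GINS complex then turn the loaded ring into an active helicase, primase and polymerase alpha start each strand, and polymerases delta and epsilon extend it, held by the clamp Pcna that replication factor C (Rfc1 to Rfc5) loads. Many of these genes are transcribed by E2F factors, which the retinoblastoma protein holds back until cyclin-dependent kinases inactivate it. A fall of their transcripts is a textbook feature of cells that have left the cell cycle, and p16, encoded by Cdkn2a, is one of the inhibitors that bring such an exit about.

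Of the 42 genes, 34 have a promoter in RefSeq's table for GRCm38.p6, and the 250 bases before each annotated start were searched on both strands for an E2F site, TTTNGCGC. It was found in 6 of the 34 genes (17.6%), namely Mcm5, Mcm6, Rfc3, Pola1, Uhrf1 and Dnmt1, against 1.31% of all 27025 genes with such a promoter. A CCAAT box (CCAAT) was found in 20 of the 34 (58.8%), against 37.5% of all genes, and the CHR element (TTTGAA) in 7 (20.6%), against 18.3%. Genes with several starts were counted once. The sequences below are the promoters of 4 of these genes, shown because they hold a match, as most of the 34 do not, each 5′ to 3′ in the direction of the gene with matches to the E2F letters in capitals. Mcm5 has 2 matches and Mcm6 has 3. Both matches of Mcm5, and the first pair of Mcm6, lie on opposite strands and share their central bases.
Mcm5 (chr8:75109259-75109508, plus strand): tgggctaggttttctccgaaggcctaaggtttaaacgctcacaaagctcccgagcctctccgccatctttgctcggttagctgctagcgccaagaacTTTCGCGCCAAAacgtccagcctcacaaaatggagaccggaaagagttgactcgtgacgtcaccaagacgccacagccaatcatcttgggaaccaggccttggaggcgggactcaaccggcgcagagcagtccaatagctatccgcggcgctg
Mcm6 (chr1:128359706-128359955, minus strand): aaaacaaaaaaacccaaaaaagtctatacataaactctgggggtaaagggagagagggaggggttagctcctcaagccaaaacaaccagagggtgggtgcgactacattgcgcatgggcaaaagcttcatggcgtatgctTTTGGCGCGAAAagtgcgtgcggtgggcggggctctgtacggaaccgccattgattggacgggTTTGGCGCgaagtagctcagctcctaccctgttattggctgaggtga
Rfc3 (chr5:151651209-151651458, minus strand): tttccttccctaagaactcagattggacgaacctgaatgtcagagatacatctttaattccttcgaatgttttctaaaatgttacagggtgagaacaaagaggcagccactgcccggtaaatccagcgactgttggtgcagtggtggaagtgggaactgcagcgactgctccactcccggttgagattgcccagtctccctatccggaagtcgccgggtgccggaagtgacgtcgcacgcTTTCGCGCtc
Pola1 (chrX:93632156-93632405, minus strand): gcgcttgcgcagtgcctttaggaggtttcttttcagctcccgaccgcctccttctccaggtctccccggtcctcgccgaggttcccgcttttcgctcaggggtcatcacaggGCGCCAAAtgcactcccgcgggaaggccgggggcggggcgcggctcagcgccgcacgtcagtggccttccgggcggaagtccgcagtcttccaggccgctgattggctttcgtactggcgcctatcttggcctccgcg

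The promoter of E2f8, the gene of the list that differed most between groups, holds no match to the E2F letters in this window. Its single CCAAT box (reverse strand) and single CHR element (reverse strand), the latter close to the start, are in capitals. A match is a description of letters and not a site shown to be bound.
E2f8 (chr7:48881597-48881846, minus strand): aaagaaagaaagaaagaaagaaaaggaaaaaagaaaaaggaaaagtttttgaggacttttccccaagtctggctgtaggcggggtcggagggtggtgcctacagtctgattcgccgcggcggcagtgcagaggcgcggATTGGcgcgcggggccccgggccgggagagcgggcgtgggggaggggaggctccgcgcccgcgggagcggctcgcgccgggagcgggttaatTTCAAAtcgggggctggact

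The array values and the sample labels were checked before the comparisons. Values on the 13 arrays have medians between 68.3 and 80.5 intensity units. No pair of arrays held identical values. The 8 melanocyte markers (among them Tyr, Dct and Sox10) summed to between 24152 and 45747 intensity units on the sorted arrays, to between 3268 and 3678 in the proliferations, but to only 573 to 998 in Cdkn2a/Braf melanoma and 502 to 569 in Cdkn2a/Braf/Lkb1 melanoma. Tyr, a defining enzyme of melanin synthesis, lay at 3.99 to 4.45 in the 4 melanomas and at 11.66 to 11.96 in day 19 cells, so the melanoma arrays carry their label without a clear signal of this marker. Stk11, which encodes Lkb1, was 8.36 and 7.86 in Cdkn2a/Braf/Lkb1 melanoma and 8.90 and 8.63 in Cdkn2a/Braf melanoma (-0.65, SE 0.39, limma adjusted p = 0.396), lower without overlap and not called, and whether its probes lie in a deleted part is not known here. The SD between replicate arrays, over all genes, was 0.703 for the day 50 pair, and 0.271 to 0.404 for the other pairs. The 7 keratinocyte markers summed to between 21499.5 and 22599.7 in the proliferations, to between 1645 and 3123 in day 19 cells and to 11786 and 15082 in day 50 cells. In these bulk samples, fewer dividing cells and less of a transcript per cell cannot be told apart.

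**Figure D1:**
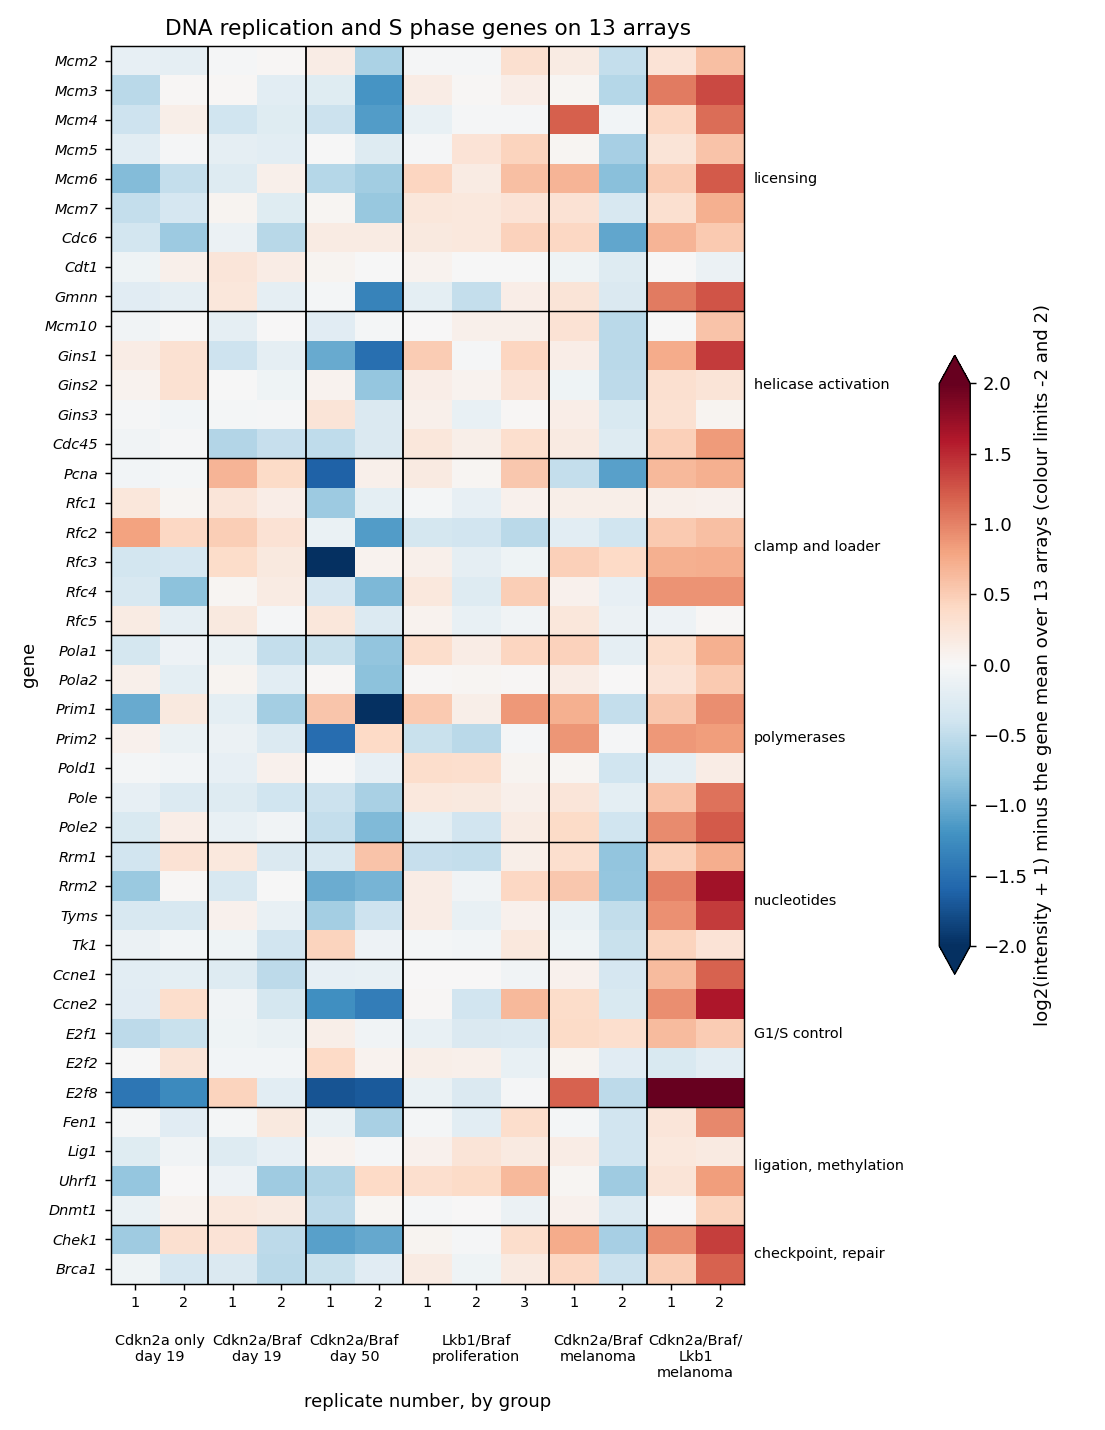
Levels of the 42 genes (rows, by role) on the 13 arrays (columns, by group and replicate number), as log2(intensity + 1) minus the gene's mean over all arrays, with red above and blue below that mean and colours limited to -2 and 2. The Cdkn2a/Braf/Lkb1 melanoma columns are the reddest for most genes, and replicate 1 of Cdkn2a/Braf melanoma is redder than replicate 2.

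Across the 6 groups the replication genes were highest in Cdkn2a/Braf/Lkb1 melanoma. Its mean was the highest of the group means for 36 of the 42 genes, while it held the highest mean for 3521 of all 19937 genes. Day 50 cells had the lowest mean for 24 of the 42, and for 3393 of all 19937 genes. The 6 genes highest elsewhere were Rfc1, Rfc5 and Cdt1 (Cdkn2a/Braf cells at day 19), Rfc2 (Cdkn2a only cells), the polymerase delta catalytic subunit Pold1 (proliferations) and E2f2 (day 50 cells). The median level of the 42 genes was 7.47 and 7.78 on the Cdkn2a/Braf/Lkb1 melanoma arrays, 7.18 and 6.55 in Cdkn2a/Braf melanoma, and 6.94, 6.88 and 7.02 in the proliferations. It was 6.77 and 6.75 in Cdkn2a/Braf cells at day 19, 6.72 and 6.88 in Cdkn2a only cells, and 6.63 and 6.32 at day 50. Both Cdkn2a/Braf/Lkb1 melanomas thus lay above all other arrays, and the lowest array was replicate 2 of day 50.

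**Figure D2:**
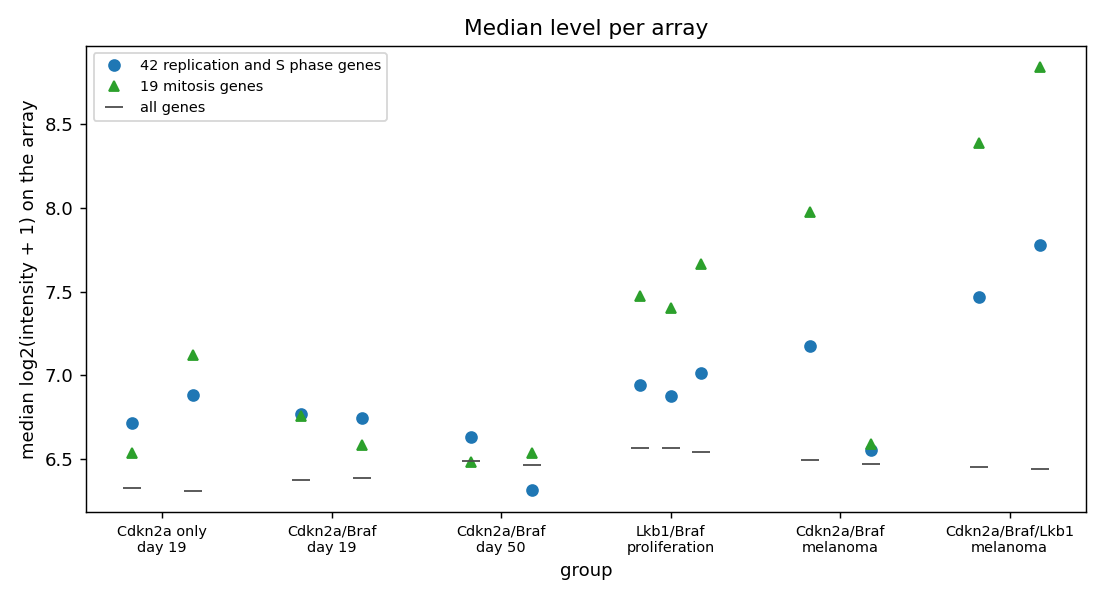
Median log2(intensity + 1) on each array of the 42 replication and S phase genes (circles), of 19 mitosis genes (triangles) and of all 19937 genes (dashes), by group (horizontal axis). The circles reach 7.47 and 7.78 in Cdkn2a/Braf/Lkb1 melanoma and are lowest, at 6.32, on a day 50 array.

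The genes varied unequally. The range of the 6 group means was 1.17 (median over the 42), against 0.81 over all genes, and 24 of the 42 had a range of at least 1. E2f8, an atypical E2F that represses E2F targets, had the widest range at 4.54. Ccne2 (2.58), Gins1 (2.33), Rrm2 (2.31) and Chek1 (2.22) followed. At the other end Rfc5 moved by 0.14, Gins3 by 0.27, the licensing factor Cdt1 by 0.36 and the ligase Lig1 by 0.41, so Gins1 and Gins3, subunits of 1 complex, stood near opposite ends.

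The first comparison asks what growth arrest changes, with sorted Cdkn2a/Braf melanocytes at day 50 set against those at day 19. Age and arrest cannot be told apart in it. Of the 42 genes 5 fell and none rose by the test. They are E2f8, the clamp loader subunits Rfc1 (the large subunit) and Rfc2, the GINS subunit Gins1, and Ccne2, a cyclin E that activates Cdk2. That is 11.9% of the list, below the 14.5% of all genes that fell, and 0 rose against 11.1% of all genes. The median difference of the 42 was -0.31, against 0.17 over all genes. Among genes above the median level, which keeps 29 of the 42, it was -0.33 for the list and -0.26 for all such genes. Bright genes in general were thus lower at day 50, and the list's median is little apart from theirs. Under a weaker filter, a log2 level above 6 in 2 arrays, the medians were -0.31 and -0.002. On 19 of the 42 genes both day 50 arrays lay below both day 19 arrays (45.2%), against 24.8% of all genes.

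E2f8 was 7.50 and 6.84 at day 19 and 5.32 and 5.36 at day 50, a fall of 1.83 (SE 0.45, limma adjusted p = 0.0168). The groups do not overlap, and the day 50 arrays also lie below the Cdkn2a only arrays, at 5.61 and 5.77. Ccne2 was 6.01 and 5.72 at day 19 and 4.85 and 4.70 at day 50, the lowest values of this gene on any array, with a difference of -1.10 (SE 0.36, limma adjusted p = 0.0489). Gins1 was 5.90 and 6.14 at day 19 against 5.31 and 4.82, a difference of -0.96 (SE 0.29, limma adjusted p = 0.0381).

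All 6 genes of the clamp and its loader had a lower mean at day 50, at a median of -0.86, and 5 of them did not overlap. Rfc2 was 7.68 and 7.48 at day 19 and 7.05 and 6.08 at day 50 (-1.02, SE 0.27, limma adjusted p = 0.0228). Rfc1 was 8.51 and 8.40 against 7.54 and 8.08 (-0.65, SE 0.17, limma adjusted p = 0.0246). Rfc5, another small subunit, differed by only -0.11 (SE 0.20). The day 50 arrays disagreed on several members. Rfc3 was 5.31 on replicate 1 and 7.47 on replicate 2, where day 19 cells had 7.76 and 7.59. Prim1, the catalytic primase subunit, went the other way, with 7.89 on replicate 1 and 5.26 on replicate 2. Differences above 1 between the day 50 arrays occurred in 6 of the 42 genes and in 11.3% of all genes.

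For Pcna the choice of probe set mattered. The set used was 11.75 and 11.47 at day 19 and 9.46 and 11.19 at day 50 (-1.29, SE 0.44, limma adjusted p = 0.0556), while the other set of this gene was 11.18 and 11.12 against 10.41 and 10.74. Both put day 50 below day 19, with a smaller difference in the other set. The genes of nucleotide supply showed no common direction: Rrm2 (-0.80) and Tyms (-0.51) were lower, and Tk1 (0.42) and Rrm1 (0.16) were higher in mean, none of them called. Both probe sets of Tk1 overlapped. The set used was 7.93 and 7.63 on day 19 and 8.47 and 7.92 on day 50. The other was 7.03 and 7.16 on day 19 and 7.14 and 6.98 on day 50. Licensing genes gave 0 calls of 9, with Gmnn at -0.71, Mcm3 at -0.62 and Cdc6, a helicase loader, at 0.50. The 7 polymerase and primase genes gave 0 calls with all 7 lower in mean (median -0.32).

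Of 56 other replication genes measured, from a list of origin recognition, replication protein A, chromatin assembly, fork and repair genes, 10 fell (17.9%) and 1 rose. The largest falls were Pold3, a polymerase delta subunit (-1.82, SE 0.33), Dbf4, which activates the kinase Cdc7 (-1.41, SE 0.34), and the origin factor Orc6 (-1.23, SE 0.38). Next came E2f3 (-1.21, SE 0.34) and Pole4 (-1.21, SE 0.39), while Cdc7 itself rose by 0.66 (SE 0.14). Among the 42, limma called 0 genes without day 19 replicate 1 and 1 without day 19 replicate 2, against 8 without day 50 replicate 1. Markers of several cell types moved with this comparison. Endothelial markers rose in 5 of 5, with sums of 299 and 322 at day 19 and of 2279 and 781 at day 50. Fibroblast markers rose in 5 of 6, with sums of 752 to 869 at day 19 and of 3931 to 4682 at day 50. Keratinocyte markers rose in 2 of 7 and B cell markers in 1 of 3. Melanocyte markers fell in 4 of 8, hair markers fell in 1 of 4, and of 6 macrophage markers 1 rose and 1 fell. Without overlap, 7 of 7 keratinocyte markers lay higher and 7 of 8 melanocyte markers lower, where 45.9% and 24.8% of all genes did. The part of these cell types in the differences was not tested.

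Mutant Braf before arrest was examined by setting Cdkn2a/Braf against Cdkn2a only cells at day 19. In the list 0 genes rose and 0 fell in limma's test, where 0.236% of all genes rose and 0.0552% fell. An unadjusted p under 0.05 was found for 4 of the 42, and for 1446 of all 19937 genes. The median difference was 0.01, against 0.02 over all genes. E2f8 had the largest difference, with 7.50 and 6.84 in Cdkn2a/Braf cells and 5.61 and 5.77 in Cdkn2a only cells (1.48, SE 0.45, limma adjusted p = 0.365). E2f1, an activator of S phase genes, was 6.28 and 6.23 against 5.84 and 5.92 (0.38, SE 0.12, limma adjusted p = 0.389), without overlap. Cdc45 and Gins1 lay the other way, at -0.48 (SE 0.18) and -0.53 (SE 0.29), each without overlap and uncalled. In this comparison 11 of the 42 genes (26.2%) lay higher and 5 (11.9%) lower without overlap, near the 23.1% and 17.5% of all genes. Of the 56 other replication genes, 0 were called by limma and 6 had an unadjusted p under 0.05.

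The Lkb1/Braf proliferations were compared with arrested day 50 Cdkn2a/Braf cells, the groups that differ in Lkb1 and in the arrest the study's title names. In the proliferations 6 of the 42 genes rose and 0 fell. They are Gins1, Cdc45, Ccne2, E2f8, the polymerase alpha catalytic subunit Pola1 and the polymerase epsilon catalytic subunit Pole. That is 14.3%, where 9.11% of all genes rose and 9.2% fell. The median difference was 0.47, against -0.10 over all genes, and 22 genes (52.4%) lay higher without overlap, against 19.2% of all genes. Of 19 mitosis genes 8 rose (42.1%), and 17 (89.5%) lay higher without overlap, larger shares than those of the replication genes. Tissue is set against sorted cells here and Cdkn2a differs as well, so material and genotype cannot be told apart. Melanocyte markers fell in 8 of 8 and endothelial markers in 1 of 5. Macrophage markers rose in 4 of 6, hair markers in 3 of 4, fibroblast markers in 3 of 6 and T cell markers in 3 of 5. The macrophage sums were 468 to 791 at day 50 and 3922 to 4166 in the proliferations, and the hair sums 360 to 468 and 1892 to 2597.5. No keratinocyte marker was called, but 6 of 7 lay higher without overlap. Their sums were 11786 to 15082 at day 50 and 21499.5 to 22599.7 in the proliferations. The part of these cells in the differences was not tested.

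Gins1 was 6.82, 6.30 and 6.75 in the proliferations and 5.31 and 4.82 at day 50, a rise of 1.57 (SE 0.27, limma adjusted p = 0.00353). Every proliferation lay above both day 50 arrays. Ccne2 was 6.11, 5.70 and 6.72 against 4.85 and 4.70 (1.41, SE 0.33, limma adjusted p = 0.0161). The values of E2f8 sit close together across the pooled lesions. It was 6.92, 6.76 and 7.02 against 5.32 and 5.36 (1.56, SE 0.41, limma adjusted p = 0.0257). Pola1 was 7.78, 7.57 and 7.86 against 6.98 and 6.63 (0.93, SE 0.22, limma adjusted p = 0.0162). Pole was 6.02, 6.01 and 5.91 against 5.39 and 5.17 (0.70, SE 0.18, limma adjusted p = 0.0229). The helicase cofactor Cdc45 was 7.20, 7.10 and 7.31 against 6.47 and 6.69 (0.62, SE 0.16, limma adjusted p = 0.0259).

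E2f1 was lower in the proliferations by mean, 6.13 against 6.39, and not called. Mcm6 had a difference of 1.03 (SE 0.38, limma adjusted p = 0.0875) and Rrm2, the ribonucleotide reductase subunit that limits S phase supply, of 1.13 (SE 0.37, limma adjusted p = 0.06). Among the 56 other replication genes 8 rose and 3 fell. The largest rises were Hells, a chromatin remodeller (2.44, SE 0.54), Dbf4 (2.13, SE 0.31), cyclin A2 (Ccna2, 2.12, SE 0.37), the anaphase-promoting complex inhibitor Fbxo5 (1.71, SE 0.39) and Pold3 (1.58, SE 0.30). Cdk2 fell by 2.32 (SE 0.23). Its RefSeq span overlaps that of the melanosome gene Pmel, and whether its probes tell the genes apart was not tested. Pold4 (-1.19, SE 0.30) and Orc4 (-0.99, SE 0.22) fell too. Without proliferation replicate 3 the calls among the 42 numbered 2, without proliferation replicate 1 they numbered 3, and without day 50 replicate 1 they numbered 12. Each of these left the median of the 42 above 0.

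**Figure D3:**
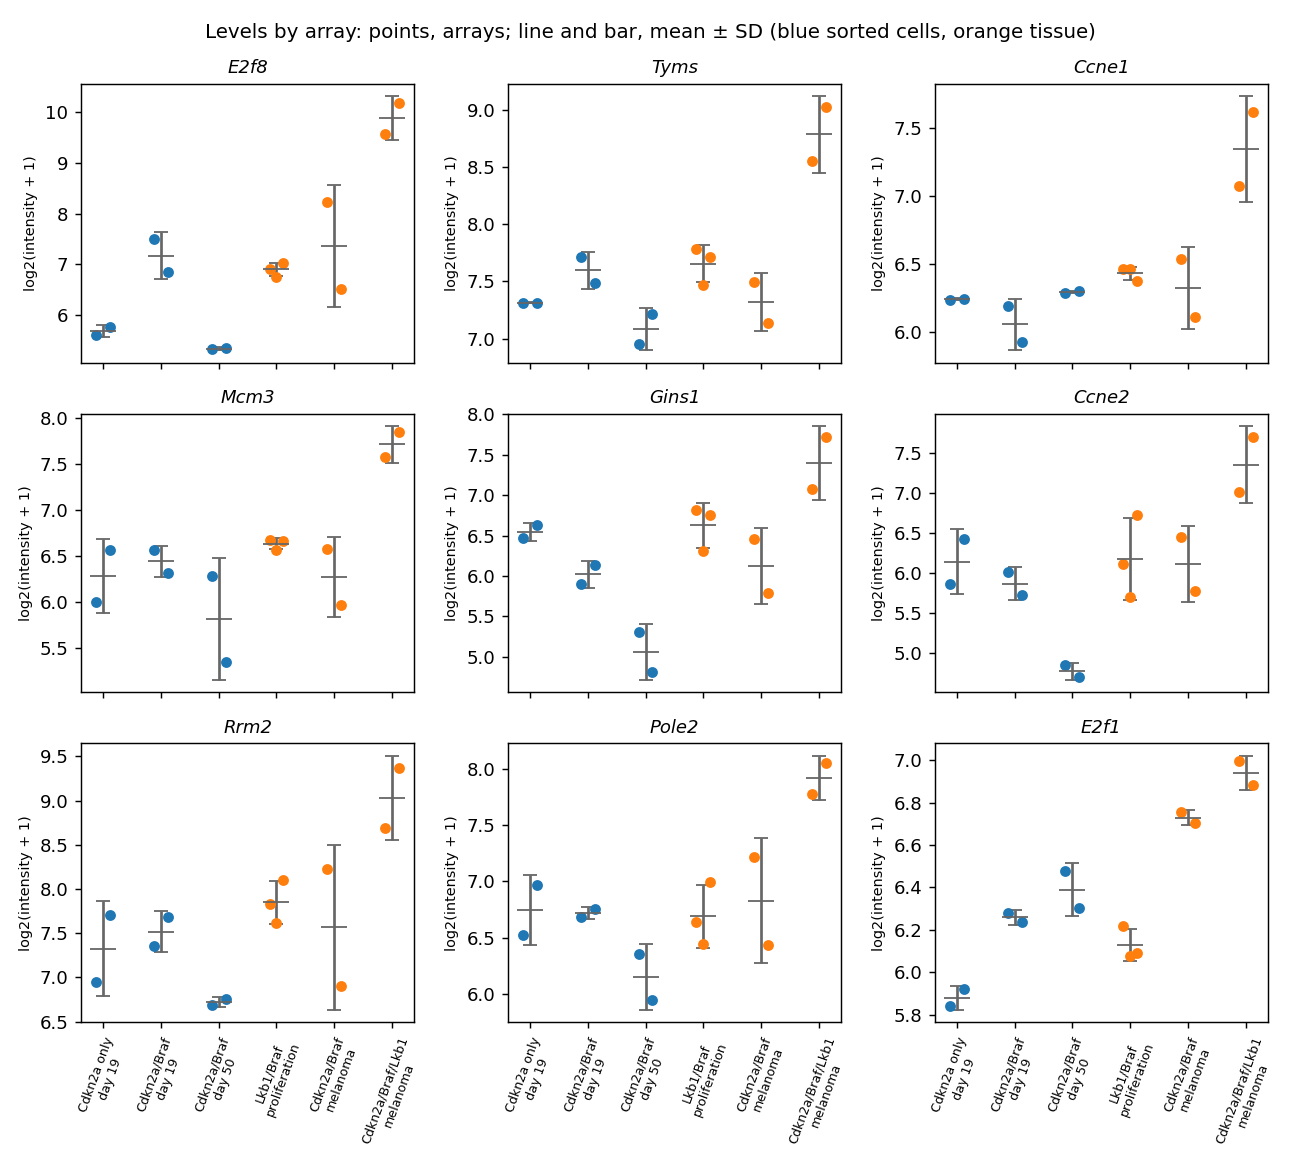
Levels of 9 genes of the list, as log2(intensity + 1), on each array (points, blue for sorted cells and orange for tissue) with the mean and SD of each group (line and bar, n = 2, and n = 3 for the proliferations). E2f8 runs from 5.32 in a day 50 array to 10.18 in a Cdkn2a/Braf/Lkb1 melanoma, and Ccne2 is lowest in both day 50 arrays.

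The effect of Lkb1 loss within melanoma was examined by setting Cdkn2a/Braf/Lkb1 against Cdkn2a/Braf melanoma. With Lkb1 altered 4 of the 42 genes rose and 0 fell: Tyms, the thymidylate synthase, E2f8, cyclin E1 (Ccne1) and the helicase subunit Mcm3. That is 9.52% of the list, against 1.83% of all genes that rose, and 0.732% of all genes fell. The median difference of the 42 was 0.72, against -0.04 over all genes. The mean was higher in 39 of the 42, and 29 (69%) lay higher without overlap, against 24.6% of all genes.

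Tyms was 8.55 and 9.02 with Lkb1 altered and 7.50 and 7.14 without, a rise of 1.47 (SE 0.20, limma adjusted p = 0.0059), or 2.77-fold. E2f8 was 9.57 and 10.18 against 8.22 and 6.52, a rise of 2.51 (SE 0.45, limma adjusted p = 0.0182), or 5.68-fold. The Cdkn2a/Braf melanomas stand far apart on this gene, yet both lie below the Lkb1 melanomas. Ccne1 was 7.07 and 7.62 against 6.53 and 6.10 (1.03, SE 0.20, limma adjusted p = 0.0243), and Mcm3 was 7.58 and 7.86 against 6.58 and 5.97 (1.44, SE 0.31, limma adjusted p = 0.0404).

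By role, the licensing genes had a median difference of 0.73 with 1 call of 9, the clamp and loader 0.58 with 0 of 6, the polymerases 0.42 with 0 of 7, and helicase activation 0.60 with 0 of 5. Nucleotide supply had a median of 1.14 with 1 call of 4, and G1/S control 1.03 with 2 of 5. Several members just missed the threshold. Gins1 differed by 1.27 (SE 0.29, limma adjusted p = 0.0516), Pole by 0.81 (SE 0.19, limma adjusted p = 0.0609) and Rrm2 by 1.46 (SE 0.41, limma adjusted p = 0.0877). Rrm2 was 8.69 and 9.36 against 8.22 and 6.91. The E2F gene E2f2 (-0.18), the loader subunit Rfc5 (-0.10) and Rfc1 (-0.03) were the 3 without a higher mean. Only Rpa2, a subunit of the single-strand binding protein, rose among the 56 other replication genes (0.68, SE 0.14, limma adjusted p = 0.0369). That is 1.79%, near the 1.83% of all genes that rose. The median of the 56 was 0.43. Without overlap, 33 of them (58.9%) lay higher and 2 lower, against 24.6% and 28.9% of all genes.

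The Cdkn2a/Braf melanomas were unlike each other on these genes. Replicate 1 exceeded replicate 2 in 41 of the 42 genes, by a median of 0.58, where 58.5% of all genes were higher and the median of all genes was 0.05. Replicate 2 lay below both Lkb1 melanomas in 40 of the 42 genes (95.2%, against 36.5% of all genes), and replicate 1 in 29 (69%, against 32.3%). Without replicate 2 the median was 0.33 and 0 genes of the list were called by limma, although 135 of all genes still were. Without replicate 1 the median was 0.98 and 13 were called, and without Cdkn2a/Braf/Lkb1 replicate 2 the count was 1.

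Markers of other cells differ between these arrays. The 7 keratinocyte markers summed to 564 on Cdkn2a/Braf replicate 1 and to 5839 on replicate 2, and to between 559.6 and 1216 in the Lkb1 melanomas. The 6 macrophage markers summed to 2177 and 2590 in Cdkn2a/Braf melanoma, and to 5031 and 6212 with Lkb1 altered. Of these 6, 1 rose by the test and 5 lay higher without overlap. With Lkb1 altered the endothelial sums were 2104.5 to 2564, against 1319 to 1392, and the T cell sums 435 to 484, against 317 to 358. Without overlap, 2 of 5 endothelial and 3 of 5 T cell markers lay higher, and 4 of 8 melanocyte markers lower, none of them called. Over all genes 24.6% lay higher and 28.9% lower without overlap. The sums of the 6 fibroblast markers overlapped, at 7222 to 7594 and 7372 to 8538, but their medians did not, at 9.19 and 9.46 against 10.26 and 9.78 with Lkb1 altered. Of these markers 3 lay higher and 1 lower without overlap, and 1 rose by the test, the collagen gene Col1a1 (8.42 and 8.32 against 9.73 and 9.79). The part of these cells in the replication gene differences was not tested. Of 19 mitosis genes 3 rose (15.8%), at a median of 1.43, on the same arrays. All 19 lay higher without overlap. Both shares are larger than those of the 42 replication genes, 9.52% and 69%.

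**Figure D4:**
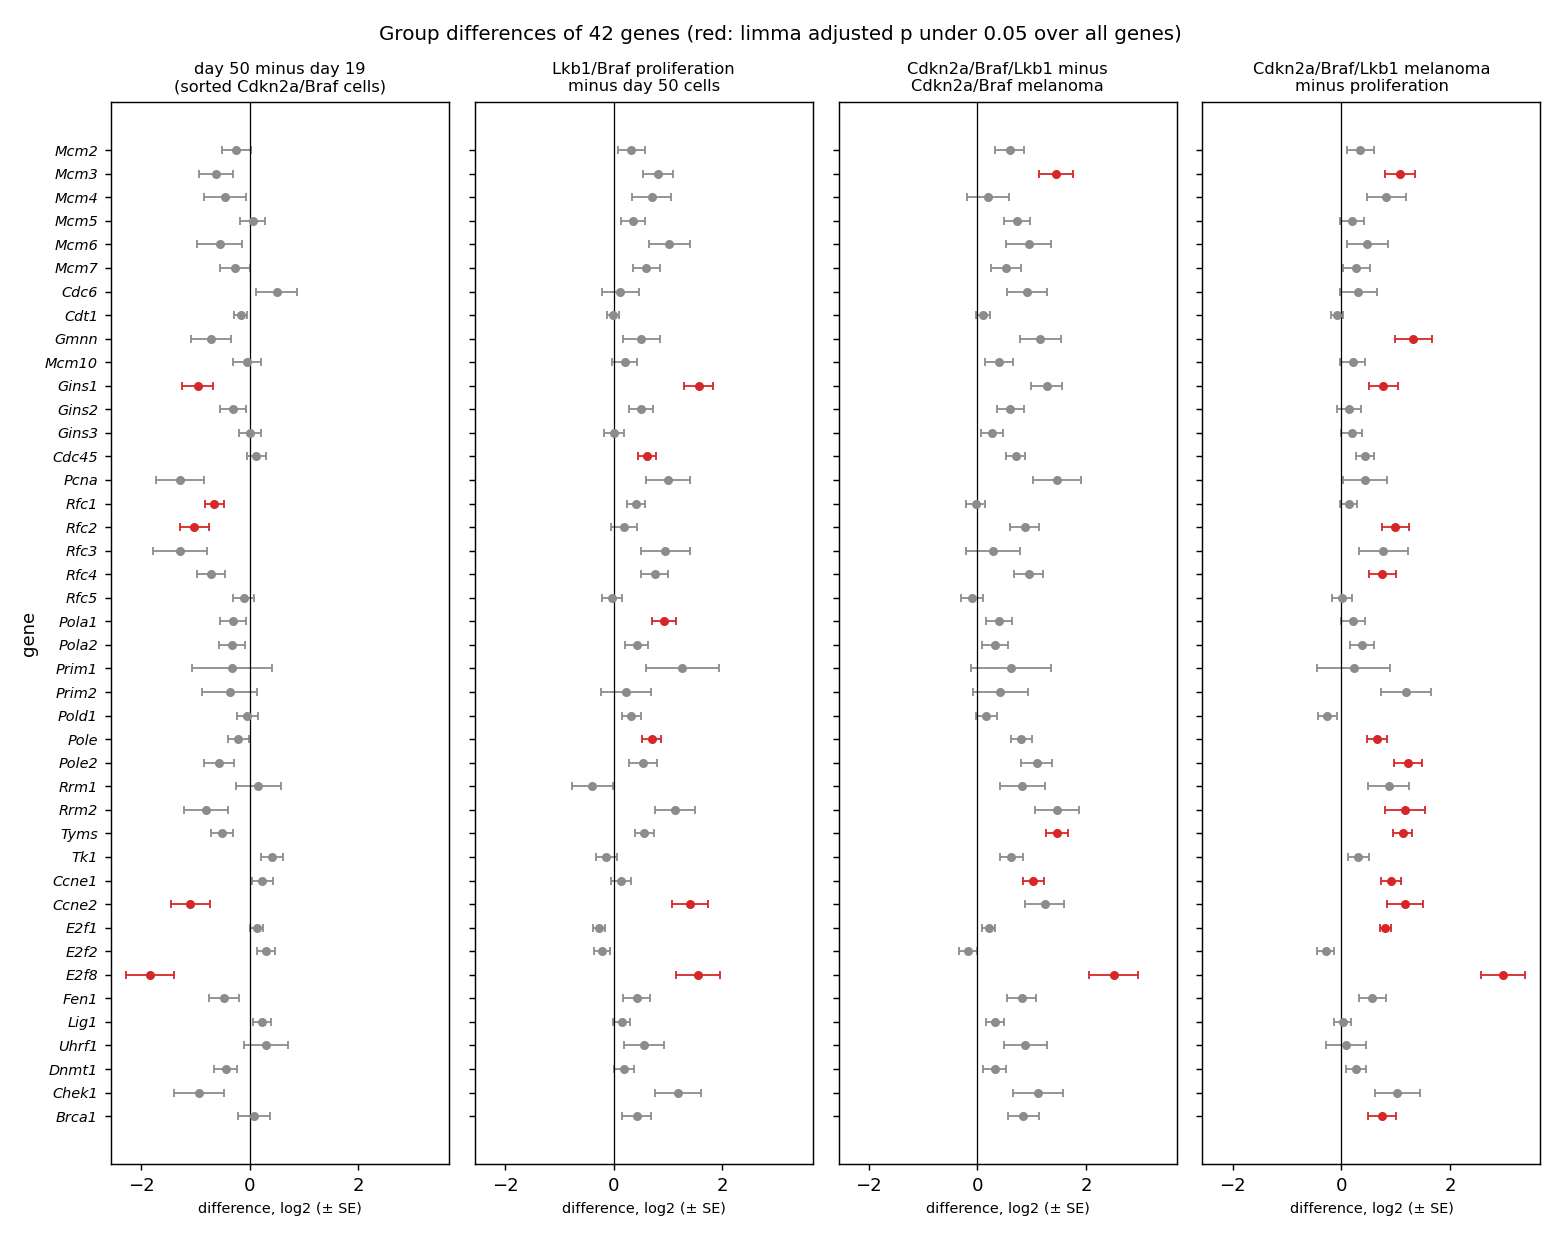
Differences in log2(intensity + 1) with their SE for the 42 genes (rows, by role) in 4 comparisons (panels), in red where limma's adjusted p over all genes is under 0.05. In the Lkb1 comparison within melanoma 39 of 42 points lie right of 0 and 4 are red, and 14 are red against the proliferations.

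Lkb1 is altered in both the Cdkn2a/Braf/Lkb1 melanomas and the Lkb1/Braf proliferations, and these lesions were compared next. Of the 42 genes 14 rose in the melanomas and 0 fell. At 33.3% this exceeds the 20% of all genes that rose, and 20.6% of all genes fell. The median difference was 0.46, against -0.04 over all genes, and 25 of the 42 (59.5%) lay higher without overlap, against 34% of all genes. Among genes above the median level, which keeps 29 of the 42, the medians were nearly equal. They were 0.37 for the list and 0.36 for all such genes, so the list is not set apart from other bright genes by its median. The proliferations are pooled, and this comparison shares its arrays with others described here, so its calls are not independent of them.

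The G1/S regulators gave 4 calls of 5. E2f8 was 9.57 and 10.18 against 6.92, 6.76 and 7.02, a rise of 2.98 (SE 0.41, limma adjusted p = 0.000517), or 7.87-fold. E2f1 was 6.996 and 6.881 against 6.22, 6.08 and 6.09 (0.81, SE 0.11, limma adjusted p = 0.000455). Both cyclins E rose, Ccne1 by 0.92 (SE 0.18) and Ccne2 by 1.18 (SE 0.33). E2f2 alone of this role was lower in mean, at 5.76 against 6.05, and not called.

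Subunits of polymerase epsilon and of the helicase and clamp loader rose as well. Pole2 was 7.78 and 8.06 against 6.64, 6.44 and 6.99 (1.23, SE 0.26, limma adjusted p = 0.00467), and the catalytic subunit Pole rose by 0.66 (SE 0.18). Gmnn, the licensing inhibitor, was 7.36 and 7.58 against 6.13, 5.85 and 6.46 (1.32, SE 0.34, limma adjusted p = 0.0121). Tyms rose by 1.13 (SE 0.18), Mcm3 by 1.08 (SE 0.28), Rrm2 by 1.18 (SE 0.37) and Rfc2 by 0.99 (SE 0.24). Rfc4 (0.76, SE 0.24), Gins1 (0.77, SE 0.27) and Brca1, a repair gene of the S phase checkpoint (0.74, SE 0.26), complete the 14. The other MCM subunits were not called: Mcm2 differed by 0.35, Mcm4 by 0.83, Mcm5 by 0.19, Mcm6 by 0.48 and Mcm7 by 0.28.

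Among the other replication genes 18 of 56 rose (32.1%) and 0 fell. The largest rises were Ctps, a CTP synthase (1.62, SE 0.39), Gins4 (1.45, SE 0.22), Rpa3 (1.44, SE 0.40), Orc2 (1.42, SE 0.37) and E2f3 (1.30, SE 0.31). Of 19 mitosis genes 10 rose (52.6%), and 17 (89.5%) lay higher without overlap, larger shares than those of the 42 genes. Keratinocyte markers fell in 7 of 7, melanocyte markers in 7 of 8, hair markers in 4 of 4, T cell markers in 2 of 5 and B cell markers in 1 of 3. Fibroblast markers rose in 4 of 6 and fell in 1, endothelial markers rose in 3 of 5 and macrophage markers in 3 of 6. The endothelial sums were 2104.5 to 2564 in the melanomas and 581 to 630.4 in the proliferations, and the macrophage sums 5031 to 6212 and 3922 to 4166. The part of these cells in the rises was not tested. Without Cdkn2a/Braf/Lkb1 melanoma replicate 2 the calls among the 42 numbered 5, and without proliferation replicate 2 they numbered 9. Ccne1, E2f1, E2f8, Pole2 and Tyms were called under each alternative in which they were tested.

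Cdkn2a/Braf melanoma and the proliferations, in contrast, differed in 1 gene of the list. E2f1 was 6.75 and 6.70 in the melanomas against 6.22, 6.08 and 6.09, a rise of 0.60 (SE 0.11, limma adjusted p = 0.00386). That is 2.38% of the list, where 12.6% of all genes rose and 8.88% fell. The median difference was -0.18, against -0.02 over all genes. Pcna was 10.61 and 9.99 in the melanomas and 11.26, 11.12 and 11.61 in the proliferations (-1.03, SE 0.40, limma adjusted p = 0.0961), without overlap, though its other probe set did overlap, at 11.05 and 10.77 against 11.17, 10.97 and 11.26. Uhrf1, which brings Dnmt1 to newly copied DNA, differed by -0.80 (SE 0.36, limma adjusted p = 0.148). Of the 56 other replication genes 6 rose, led by Gins4 (1.08, SE 0.22) and Pold4 (0.95, SE 0.30), and Cdca7 fell by 0.80 (SE 0.20). The direction of the list rests on which melanoma is used. Its median was -0.48 without melanoma replicate 1, where 1 gene rose and 4 fell, and 0.12 without replicate 2, where 3 rose. Keratinocyte markers fell in 7 of 7, melanocyte markers in 6 of 8, hair markers in 4 of 4, T cell markers in 3 of 5, B cell markers in 1 of 3 and macrophage markers in 1 of 6. Endothelial markers rose in 2 of 5 and fibroblast markers in 1 of 6, and the part of these cells in the differences was not tested.

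Against arrested day 50 cells, Cdkn2a/Braf melanoma had 7 of the 42 genes higher by the test and 0 lower. These are E2f8, Ccne2, Gins1, Mcm4, Rfc1, Pola1 and Rfc3. The share of 16.7% is near the 15.5% of all genes that rose, and 16.9% fell. The median difference was 0.33, against -0.15 over all genes. Among genes above the median level it was 0.32 for the list and 0.22 for all such genes. Mcm4, a helicase subunit, was 8.35 and 7.10 against 6.73 and 6.05 (1.34, SE 0.39, limma adjusted p = 0.0281). E2f8 rose by 2.03 (SE 0.45), Ccne2 by 1.34 (SE 0.36) and Gins1 by 1.06 (SE 0.29). Rfc3 was 7.87 and 7.80 against 5.31 and 7.47 (1.44, SE 0.50, limma adjusted p = 0.0491), with day 50 replicate 1 far below the other 3 arrays. Material differs here as in the proliferation comparison. Macrophage markers rose in 5 of 6, at a median of 2.36 over the 6, and fibroblast markers in 2 of 6. Melanocyte markers fell in 8 of 8, keratinocyte markers in 3 of 7, hair markers in 3 of 4 and B cell markers in 1 of 3, while 1 of 5 T cell markers rose and 1 fell. Their part in the differences was not tested. Without melanoma replicate 1 the median was 0.05 with 1 rise and 1 fall, and without day 50 replicate 1 there were 12 rises and 1 fall.

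Several genes were called in more than 1 comparison, and these comparisons share arrays. E2f8, Gins1 and Ccne2 were called at day 50 against day 19, in the proliferations and the Cdkn2a/Braf melanomas against day 50, and in the Lkb1 melanomas against the proliferations. In each of them day 50 cells had the lowest mean and Cdkn2a/Braf/Lkb1 melanoma the highest. The group means of Gins1 ran 5.06 ± 0.35 (SD, n = 2) at day 50, 6.02 ± 0.17 at day 19, 6.12 ± 0.47 in Cdkn2a/Braf melanoma, 6.55 ± 0.11 in Cdkn2a only cells, 6.63 ± 0.28 (n = 3) in the proliferations and 7.40 ± 0.46 in Cdkn2a/Braf/Lkb1 melanoma. Neighbours in the middle of this order differ by less than the larger of their SDs, while both ends stand apart from their neighbours by more.

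Some genes of the list gave no call in any comparison although their means ranged widely. Chek1, the kinase that guards stalled forks, was 5.29 and 5.35 at day 50, 6.64 and 5.85 at day 19, and 5.66 and 6.70 in Cdkn2a only cells. It was 6.44, 6.35 and 6.73 in the proliferations, 7.13 and 5.71 in Cdkn2a/Braf melanoma, and 7.31 and 7.77 in Cdkn2a/Braf/Lkb1 melanoma. The day 50 arrays are the lowest and the Cdkn2a/Braf/Lkb1 melanomas the highest, with replicate 1 of Cdkn2a/Braf melanoma close below the latter. Mcm6 was 7.25 and 7.14 at day 50, 8.51 and 6.996 in Cdkn2a/Braf melanoma, and 8.34 and 9.06 in Cdkn2a/Braf/Lkb1 melanoma, so the melanoma groups overlap on it. Dnmt1, the maintenance methyltransferase, also gave no call but ranged little. Its group means spanned 0.46, and it kept within 8.74 and 9.70 on all 13 arrays. Prim1 and Prim2, which form the primase, differed between the day 50 arrays in opposite directions, with Prim2 at 5.09 on replicate 1 and 7.02 on replicate 2.

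**Figure D5:**
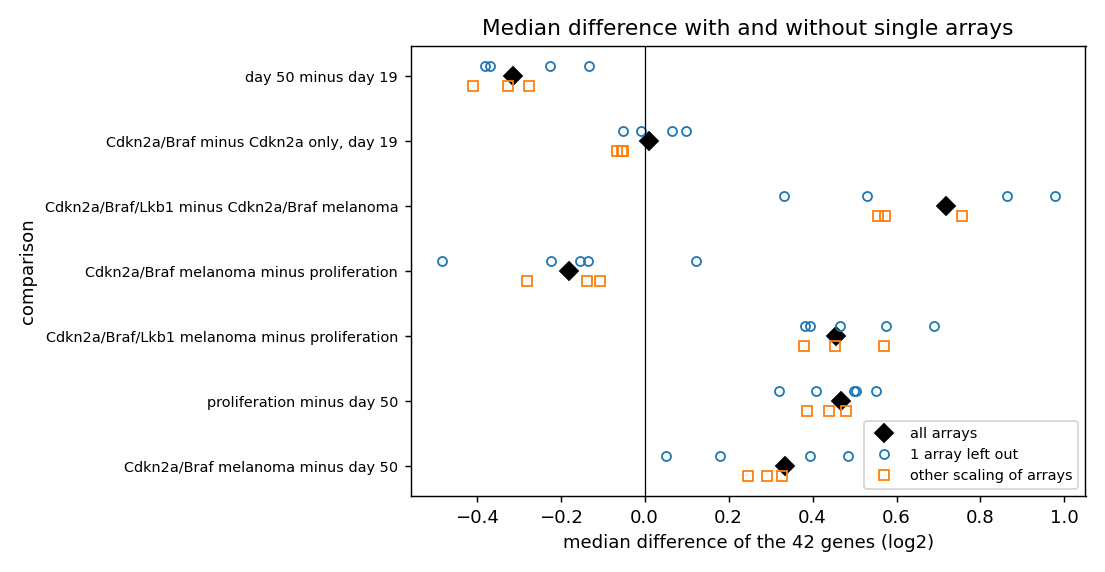
Median difference of the 42 genes, in log2(intensity + 1), for each of the 7 comparisons (rows) with all arrays (diamonds), with 1 array left out at a time (circles) and with the arrays scaled by median, quantiles or interquartile range (squares). The Lkb1 comparison within melanoma runs from 0.33 to 0.98 as 1 array is left out, and Cdkn2a/Braf melanoma against the proliferations crosses 0.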

How the data were processed

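Per the labels' protocols, total RNA (Qiagen RNeasy) was amplified and labelled with NuGEN kits, Ovation V2 and Encore. The authors deposited linear intensities, from 3.35 to 17698, and the submitters' processing notes name RMA. RMA gives log2 values, and how the deposited intensities became linear is not stated. Precision is limited by how few arrays each group has.

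Of 34760 probe sets, 21640 name 1 gene in the platform table, 1321 name several and were left out, and 11799 are not listed. Entrez identifiers matched RefSeq for 21553, and 0 symbols changed. Of the 42 genes 2 (Pcna and Tk1) have more than 1 set. The spans of 10 overlap another protein-coding gene in RefSeq (Mcm7, Gins2, Cdc45, Rfc4, Pole2, Tk1, Ccne2, E2f1, Fen1 and Lig1), and whether the probes tell these apart was not tested.

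The model, in limma 3.58.1 under R 4.3.3, took log2(intensity + 1) as 6 group means over 13 arrays with 7 residual and 3.08 prior degrees of freedom, two-sided, with Benjamini-Hochberg adjustment over 19937 genes. The fit was tested on simulated data. Member genes and the lists of other replication, mitosis and marker genes were chosen with earlier results of these data known, and all members could be named, with the 5 largest called changes each way of the other replication genes. Some genes of these lists are not reported here, and Ccnb1 of the mitosis list was not analysed here. Promoters come from RefSeq's table for GRCm38.p6. A search of protein motifs was planned and not run. Python 3.11.15 with pandas 2.3.3 and matplotlib 3.10.9 made tables and plots.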

Additional observations from a re-analysis of the deposited data

How the results depend on the processing

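Medians and counts of calls among the 42 genes were recomputed under each alternative, giving 212 values, of which 172 stayed close to the value reported and 40 moved. A count was close if equal or within a fixed ratio. A median was close if it moved by less than 0.213, the pooled SD of the list's array medians within groups. This width exceeds some of the medians, and the sign changes for Braf at day 19 count as close under it. The median changed sign in 2 comparisons: for Cdkn2a/Braf melanoma against the proliferations it went from -0.18 to 0.12 without melanoma replicate 2, and for Braf at day 19 from 0.01 to below 0 under the scalings given last and without Cdkn2a/Braf replicate 1 (-0.0095) or Cdkn2a only replicate 1 (-0.05). Of 546 recomputed calls of single genes, 412 were kept and 134 lost, with 0 reversed in direction. The cause of these changes was not tested.

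For day 50 against day 19, with 5 calls, a pseudocount of 16 left 3, and array weights or a fit of sorted cells alone left 1. For Lkb1 in melanoma, with 4, quantile normalization and a common interquartile range each left 2, a fit of tissue alone gave 7, and the fit with the replicate block left 1. For Cdkn2a/Braf/Lkb1 melanoma against the proliferations, with 14, the filter to genes above the median level left 6, with 29 of the 42 tested. For Cdkn2a/Braf melanoma against the proliferations, with 1, quantile normalization gave 5 (1 up and 4 down), a common interquartile range 2, array weights 2, tissue alone 4 and the filter 0. For the proliferations against day 50, with 6, a common interquartile range gave 10, the filter 3, array weights 1 and the replicate block 1. For Cdkn2a/Braf melanoma against day 50, with 7, array weights left 0 and the replicate block 3. A fit of 1 material alone could not be made for the comparisons of tissue with day 50 cells.

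With 1 array left out at a time, where a lone array is assumed to vary like the other groups, calls ran from 0 to 8 for day 50 against day 19 (median -0.38 to -0.13), and stayed at 0 for Braf at day 19 (-0.05 to 0.10). They ran from 0 to 13 for Lkb1 in melanoma (0.33 to 0.98), from 5 to 13 for the Lkb1 melanomas against the proliferations (0.38 to 0.69), and from 1 to 5 for Cdkn2a/Braf melanoma against them (-0.48 to 0.12). They ran from 2 to 12 for the proliferations against day 50 (0.32 to 0.55) and from 2 to 13 for Cdkn2a/Braf melanoma against day 50 (0.0501 to 0.48).

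Scaling moved the median of all genes at day 50 against day 19 from 0.17 to 0.07 with median centring, to 0.06 with quantiles and to -0.05 with a common interquartile range. It moved that of the Lkb1 melanomas against the proliferations from -0.04 to 0.07, 0.00 and 0.16, and that of Cdkn2a/Braf melanoma against them from -0.02 to 0.05, 0.00 and 0.14. The median of the 42 kept its direction under these scalings in each comparison but that of Braf, where 0.01 became -0.05, -0.05 and -0.07. With the filter to genes above the median level, the list and all genes had medians of 0.61 and 0.05 for Lkb1 in melanoma. They were 0.51 and 0.01 for the proliferations against day 50, and -0.24 and 0.25 for Cdkn2a/Braf melanoma against the proliferations. For Braf at day 19 they were 0.01 and 0.05. Samples with the same replicate number did not deviate together: none of 30 correlations was over 0.1 (-0.117 to 0.0933), so the replicate block pairs samples by number only.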

Other observations

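The Cdkn2a/Braf melanomas, unlike on the replication genes, were unlike on the mitosis genes as well. The 19 mitosis genes summed to 5729 intensity units on replicate 1 and to 2287 on replicate 2, where the Cdkn2a/Braf/Lkb1 melanomas had 8133 and 11133 and the proliferations 4137 to 5504. At day 50 the sum was 1762 and 2201, and in Cdkn2a/Braf cells at day 19 it was 2181 and 2680, so these groups overlap.

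Braf itself was 8.78 and 8.85 at day 19 and 8.20 and 7.99 at day 50 in Cdkn2a/Braf cells, a fall of 0.72 on the log2 scale (SE 0.13, limma adjusted p = 0.00328). In Cdkn2a only cells it was 9.31 and 9.27.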
